A study of Mus musculus with 10 samples.

Results

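RBPJ binding was examined at 10 genes that encode integrin alpha subunits, namely Itga1, Itga2, Itga3, Itga4, Itga5, Itga6, Itga8, Itga9, Itga11 and Itgav. A peak was assigned to a gene when its centre lay in the gene body or in the regulatory domain of the gene. That domain ran from 5 kb upstream to 1 kb downstream of the 5' end of the gene and was extended to the nearest domains of neighbouring protein-coding genes by at most 1 Mb. By this rule 11 of 11094 RBPJ peaks belonged to the integrin alpha genes, and 8 of the 10 genes had at least 1 peak.

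The peaks came from chromatin immunoprecipitation and sequencing (ChIP-seq) in untreated RD1 cells, which the labels call mouse brain pericytes, grown in Pericyte Medium on dishes coated with collagen I. Its 10 samples form 5 groups with 2 replicates each, immunoprecipitated with antibodies against RBPJ, H3K4me1, H3K4me3 or histone H3, or taken as input without antibody. Only the RBPJ peak lists were used, and the 8 samples of the other groups are not analysed here. Both RBPJ replicates carried the same list, without scores or read counts, so that no spread between replicates and no measure of peak strength could be given. The study describes the cells of its ChIP-seq as cultured primary brain pericytes, whereas the labels give the name RD1, and a list of peaks cannot be checked against the defining markers of pericytes. All cells shared 1 culture condition, so that binding could not be compared between conditions.

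Integrins are cell surface receptors that pair an alpha with a beta subunit and anchor cells to the extracellular matrix. The alpha subunit largely sets the ligand: Itga1, Itga2 and Itga11 encode collagen receptors, Itga3 and Itga6 encode laminin receptors, and Itga5, Itga8 and Itgav encode receptors for matrix proteins with an RGD motif such as fibronectin. Pericytes share a basement membrane with the endothelium of brain capillaries and adhere to it through such receptors. RBPJ is the DNA-binding factor of the Notch pathway, represses or activates genes depending on its partners, and recognises the core TGGGAA.

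The TGGGAA cores within the integrin peaks are the sequences closest to what RBPJ is known to bind, and 10 of the 12 are printed here with 20 bases to either side. Capitals mark the core, and each is printed in the direction in which it reads TGGGAA (GRCm38).
Itga5 peak 1 site 1, chr15:103368158-103368203, minus strand: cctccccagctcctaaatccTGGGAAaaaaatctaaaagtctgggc
Itga5 peak 1 site 2, chr15:103367956-103368001, plus strand: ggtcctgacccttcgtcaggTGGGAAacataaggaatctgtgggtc
Itga5 peak 1 site 3, chr15:103365298-103365343, minus strand: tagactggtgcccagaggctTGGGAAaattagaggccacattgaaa
Itga2 peak site 1, chr13:114933831-114933876, plus strand: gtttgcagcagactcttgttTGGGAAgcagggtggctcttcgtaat
Itga2 peak site 2, chr13:114933253-114933298, plus strand: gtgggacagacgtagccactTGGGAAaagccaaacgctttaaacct
Itga2 peak site 3, chr13:114932930-114932975, minus strand: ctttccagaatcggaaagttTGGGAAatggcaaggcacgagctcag
Itga2 peak site 4, chr13:114932844-114932889, minus strand: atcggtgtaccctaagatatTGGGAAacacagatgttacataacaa
Itga8 peak site, chr2:12300982-12301027, plus strand: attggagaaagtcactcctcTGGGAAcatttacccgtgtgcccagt
Itga1 peak 2 site, chr13:115090771-115090816, plus strand: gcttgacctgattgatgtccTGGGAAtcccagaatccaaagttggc
Itga6 peak site, chr2:71594875-71594920, minus strand: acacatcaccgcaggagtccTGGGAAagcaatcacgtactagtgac

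The 4 peaks that lay far from every transcription start site (TSS) are shown by their central 200 bp, because both central TGGGAA cores and both AP-1 motifs of the integrin peaks lay in them. Each is printed in the direction of transcription of its gene, and capitals mark matches on either strand to the motifs described with the results.
Itga5 peak 2, chr15:103358851-103359050, minus strand: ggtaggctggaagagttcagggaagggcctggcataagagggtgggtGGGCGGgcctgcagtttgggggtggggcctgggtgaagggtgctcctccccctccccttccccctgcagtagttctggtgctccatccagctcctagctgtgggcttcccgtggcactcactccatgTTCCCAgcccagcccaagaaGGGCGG
Itga11 peak 1, chr9:62560140-62560339, plus strand: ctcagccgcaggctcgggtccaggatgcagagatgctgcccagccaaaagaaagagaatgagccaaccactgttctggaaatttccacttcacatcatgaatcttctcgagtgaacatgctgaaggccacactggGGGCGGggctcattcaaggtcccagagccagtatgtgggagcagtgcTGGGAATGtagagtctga
Itga11 peak 2, chr9:62775552-62775751, plus strand: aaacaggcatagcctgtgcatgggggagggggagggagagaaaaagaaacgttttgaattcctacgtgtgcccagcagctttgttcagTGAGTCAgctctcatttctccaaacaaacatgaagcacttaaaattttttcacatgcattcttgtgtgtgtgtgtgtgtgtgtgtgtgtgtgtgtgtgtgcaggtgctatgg
Itga6 peak, chr2:71594683-71594882, plus strand: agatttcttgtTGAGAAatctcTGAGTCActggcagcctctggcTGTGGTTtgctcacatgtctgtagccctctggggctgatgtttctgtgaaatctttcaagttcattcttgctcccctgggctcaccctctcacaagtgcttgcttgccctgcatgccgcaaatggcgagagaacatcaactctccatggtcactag

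Integrin alpha genes with a peak were frequent, but so were genes with a peak in general. Of all 21938 protein-coding genes, 46.7% had a peak by the same rule, against 8 of the 10 integrin alpha genes. None of the 10 lay on chromosomes 4, 7, X or Y, which held 451 peaks in all, and outside these chromosomes 55.3% of 17457 genes had a peak. The regions of the integrin alpha genes were also long, their median being 293 kb and that of all genes 93.8 kb. Among the 9962 genes outside the same chromosomes with regions between 70.6 and 1149 kb, the range of the integrin alpha genes, 63.8% had a peak. The 10 regions held 11 peaks, whereas their lengths and the number of peaks per bp of each chromosome would give 21.1.

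Of the 11 integrin alpha peaks, 6 lay at a TSS of their own gene. A peak was thus centred within 1 kb of a TSS at 6 of the 10 genes, Itga1, Itga2, Itga3, Itga5, Itga8 and Itgav, and each of these 6 peaks spanned a TSS of its gene. Over all protein-coding genes the share was 27.4%, and outside chromosomes 4, 7, X and Y it was 33.2%. The other 5 peaks lay between 7813 and 192158 bp from the nearest TSS of their gene. Counting the TSS of any gene, 7 of the 11 peaks were within 1 kb, against 5489 of all 11094 peaks. As the genes were chosen with these results known, the counts are given as a description and without a test.

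**Figure D1:**
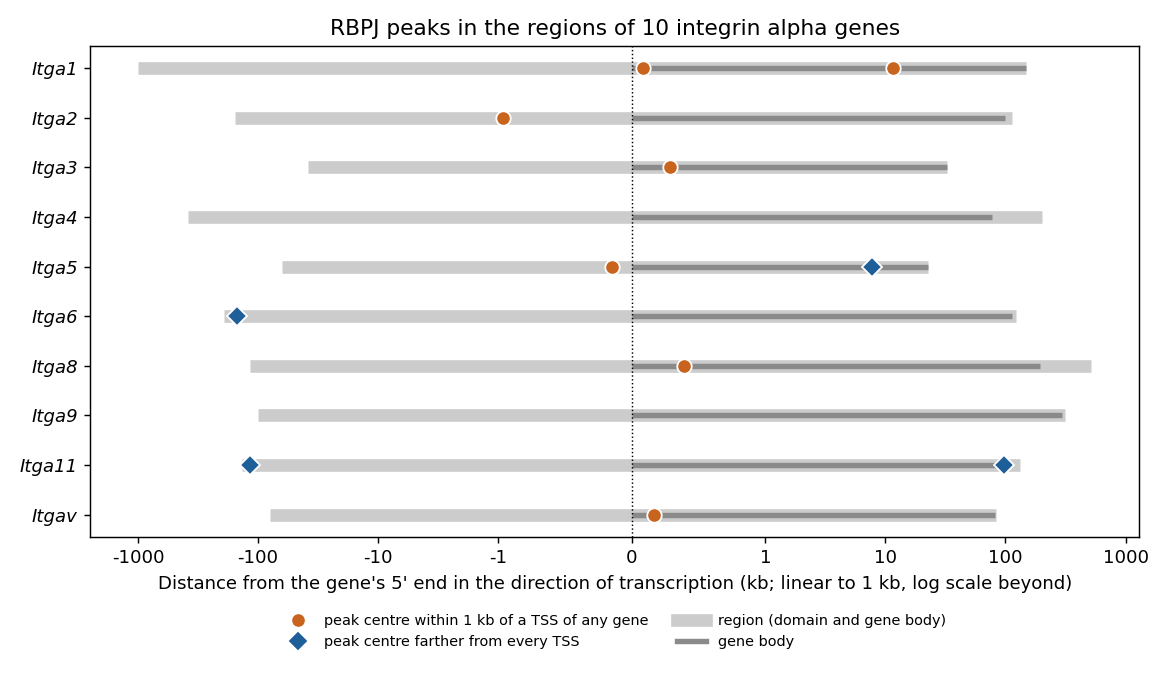
Position of the 11 RBPJ peaks in the regions of 10 integrin alpha genes. The x axis gives the distance from the 5' end of each gene in the direction of transcription in kb (linear to 1 kb, logarithmic beyond), each row is a gene, light bars show its region, dark bars the gene body, circles peaks within 1 kb of a TSS of any gene and diamonds the 4 other peaks. Itga4 and Itga9 have no peak, and Itga6 and Itga11 have peaks only at 97825 bp or more from their 5' ends.

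Receptors for collagen were represented by Itga1, Itga2 and Itga11, and all 3 genes had a peak. Itga1 (chr13:114953096-115101964, minus strand) had 2 peaks in a region of 1149 kb, where the density of peaks on the chromosome would give 5.40. Itga1 peak 1 (chr13:115101534-115102228) was 695 bp wide and reached from 264 bp upstream to 430 bp downstream of the TSS. Its centre lay 83 bp downstream of the TSS, in the untranslated part of the first exon, and the whole peak held 0 TGGGAA cores. The 5' end of the predicted gene Gm49395 was closer to the centre, at 40 bp.

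Itga1 peak 2 (chr13:115090040-115090917, 878 bp) was centred 11486 bp downstream of the Itga1 TSS, in intron 1 of 29 exons. It lay only 292 bp from the 5' end of Pelo, a gene for a ribosome rescue factor that is nested in this intron and transcribed in the same direction. The same peak also covered part of the antisense transcript Gm10734. By distance this peak was therefore nearer to Pelo than to Itga1, although the rule counted it for Itga1 as well. Its only TGGGAA core lay 315 bp from the centre and is printed above.

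Itga2 (chr13:114833081-114932100, minus strand), the alpha subunit of the collagen receptor of platelets and fibroblasts, had 1 peak (chr13:114931961-114934164). At 2204 bp it was wider than 87.4% of all peaks, and it extended from 2064 bp upstream to 139 bp downstream of the 5' end. Its centre lay 962 bp upstream, just inside the limit of 1 kb. All 4 TGGGAA cores of the peak were upstream of the TSS, at 766, 852, 1175 and 1753 bp. The 2 cores nearest to the TSS pointed in the direction of the gene, and 80 bp separated them, whereas the other 2 pointed away from it. With 39.5% G and C in its central 200 bp, Itga2 had the lowest value of the 11 integrin peaks.

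Itga11 (chr9:62677826-62783982, plus strand), a receptor for fibrillar collagen made by mesenchymal cells, differed from the other 2 collagen receptor genes in having no peak near its TSS. Itga11 peak 1 (chr9:62560078-62560401, 324 bp) was centred 117587 bp upstream and lay closer to Coro2b, which encodes an actin-binding coronin, at 23195 bp. Itga11 peak 2 (chr9:62775521-62775782, 262 bp) was centred 97825 bp downstream in intron 26 of 30 exons, and the nearest 5' end was that of Fem1b at 36283 bp. This peak was the narrowest of the 11, and 47.3% of its bases were marked as repeats in the reference.

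Receptors for laminin were represented by Itga3 and Itga6. Itga3 (chr11:95044474-95076801, minus strand) had 1 peak of 954 bp (chr11:95076042-95076995), centred 283 bp downstream of the 5' end of the gene and 196 bp from the nearest TSS, in an untranslated part of the gene. The peak held 0 TGGGAA cores, 60.5% G and C in its central 200 bp, and CpG dinucleotides at 0.896 of the number that its base composition would give.

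Itga6 (chr2:71745616-71858416, plus strand) had 1 peak of 287 bp (chr2:71594639-71594925) that lay 150834 bp upstream of its 5' end. The nearest start of a protein-coding transcript of Itga6 was farther still, at 192158 bp. The homeobox genes Dlx2 and Dlx1 were closer, at 48028 and 66669 bp, and the peak fell into the domain of Dlx2 as well. No peak was found in the gene body of Itga6.

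Receptors for RGD-containing ligands were represented by Itga5, Itga8 and Itgav, and all 3 had a peak over a TSS. Itga5 (chr15:103344286-103366763, minus strand), the alpha subunit of the main fibronectin receptor, had the widest of the integrin peaks. Itga5 peak 1 (chr15:103365224-103368597) measured 3374 bp, was wider than 95.5% of all peaks, and reached from 1834 bp upstream to 1539 bp downstream of the TSS, around a centre 147 bp upstream. Its 3 TGGGAA cores lay near the ends of the peak, 1417 and 1215 bp upstream and 1443 bp downstream of the TSS. The upstream pair faced each other with 196 bp between them. Site 2 of this pair was the only one of the 12 cores preceded by a G (8.33%), the form GTGGGAA that RBPJ is known to bind well, against 26.5% of the 16124 cores in all peaks.

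Itga5 peak 2 (chr15:103358693-103359208, 516 bp) was centred 7813 bp downstream of the TSS in intron 2 of 30 exons, and no 5' end of another protein-coding gene was closer than that of Itga5. Together the 2 peaks stood in a region of only 85.2 kb, where the density of peaks on the chromosome would give 0.507. The TGGGAA core of Itga5 peak 2 lay 77 bp from the centre of the peak.

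Itga8 (chr2:12106632-12301922, minus strand), the alpha subunit of a nephronectin receptor of smooth muscle and mesangial cells, had 1 peak of 1130 bp (chr2:12300968-12302097). It ran from 175 bp upstream to 954 bp downstream of the TSS, and its centre lay 390 bp downstream in intron 1 of 30 exons. Its TGGGAA core was 918 bp downstream of the TSS, close to the downstream end of the peak. The antisense transcript E030013I19Rik started 586 bp from the centre of the peak. The peak was the only one in a region of 636 kb, where the chromosome's density would give 3.62.

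Itgav (chr2:83724397-83806916, plus strand), whose product binds vitronectin and activates latent TGFβ, had 1 peak of 578 bp (chr2:83724272-83724849). It was centred 5 bp from the nearest TSS and reached 283 bp upstream and 294 bp downstream of it. With 75.0% G and C in the central 200 bp and a CpG ratio of 1.01, it was the richest in both among the 11 integrin peaks, and it held 0 TGGGAA cores.

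**Figure D2:**
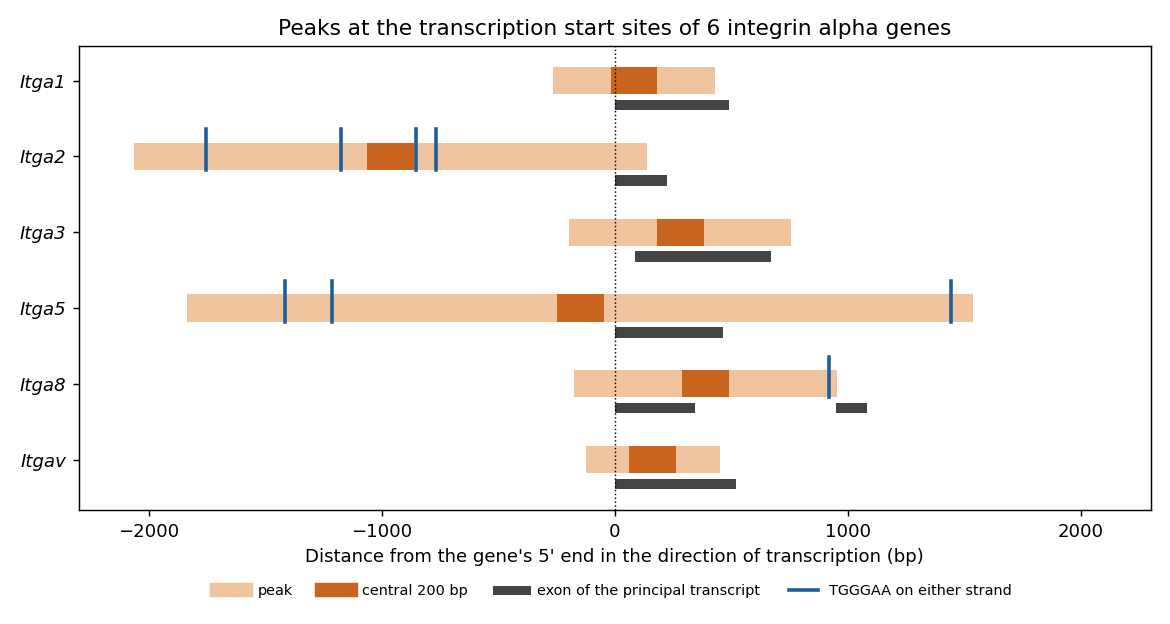
The 6 integrin alpha peaks that spanned a TSS. The x axis gives the distance in bp from the 5' end of the gene in the direction of transcription, pale bars show the peaks, dark orange the central 200 bp, black bars exons of the principal transcript, and blue lines TGGGAA cores on either strand. The 4 cores of Itga2, the 3 of Itga5 and the 1 of Itga8 all lie outside the central 200 bp, and Itga1, Itga3 and Itgav have none.

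Itga4 and Itga9 encode a closely related pair of alpha subunits that bind VCAM1, fibronectin splice forms and tenascin, and neither gene had a peak. The region of Itga4 (chr2:79255426-79333123, plus strand) was 587 kb long, and the density of peaks on the chromosome would give 3.34. The nearest upstream peak (chr2:78868517-78869428, 912 bp) was centred 386 kb away, only 0.153 kb outside the region, and stood 848 bp from the 5' end of Ube2e3, a ubiquitin-conjugating enzyme gene. Downstream, the nearest peak lay 311 kb from the 5' end of Itga4. The region of Itga9 (chr9:118606690-118901003, plus strand) measured 414 kb, where the density would give 2.27 peaks. Its nearest peaks were 118 kb upstream, 10918 bp from Eomes, and 346 kb downstream, and lay 18.1 and 31.0 kb outside the region. The absence of a peak from the list does not show that RBPJ was absent, since the list holds no values under the calling threshold.

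Integrin peaks near a TSS were wider than those far from one. The 7 peaks within 1 kb of a TSS of any gene, called proximal here, were 578 to 3374 bp wide with a median of 954 bp, and the 5489 proximal peaks of the series had a median of 829 bp. The 4 distal peaks at Itga5, Itga6 and Itga11 were 262 to 516 bp wide with a median of 306 bp, against 523 bp for 5605 distal peaks. No distal integrin peak was as wide as the narrowest proximal one, whereas over all peaks the classes overlapped, with widths of 135 to 12719 bp for proximal and 102 to 185896 bp for distal peaks. Over all 11 peaks the median was 695 bp, close to the 690 bp of the whole list.

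Base composition was lower at the proximal integrin peaks than at most proximal peaks. Their central 200 bp had a median of 52.0% G and C, with a range of 39.5 to 75.0%, against 66.0% for all proximal peaks. Of the 7, only Itgav was above that median. The CpG ratio of the proximal integrin peaks had a median of 0.655, against 0.820 for all proximal peaks. The distal integrin peaks, with a median of 52.2% G and C, were near the 49.5% of all distal peaks.

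**Figure D3:**
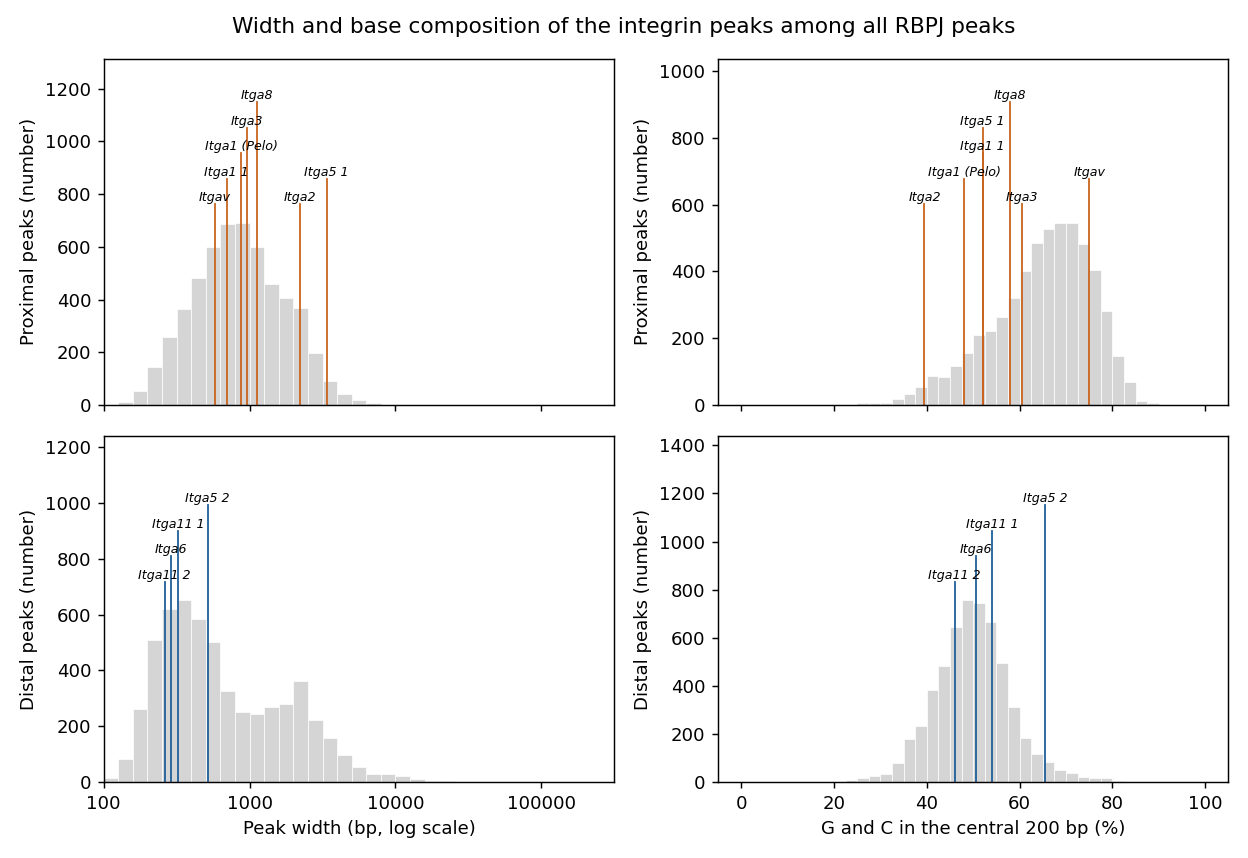
Width and base composition of the 11 integrin peaks among all RBPJ peaks. Grey bars count all 5489 proximal (upper row) and 5605 distal (lower row) peaks by width in bp on a log scale (left) and by the percentage of G and C in the central 200 bp (right), vertical lines mark the integrin peaks, and a number after a gene name tells peaks of 1 gene apart. Itga2 and Itga5 peak 1 are the widest, 6 of the 7 proximal lines lie below the 66.0% G and C median of all proximal peaks, and the 4 distal peaks are all narrower than 523 bp.

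The RBPJ core was found in most integrin peaks. In all, 7 of 11 peaks held TGGGAA (63.6%, 95% exact binomial interval 30.8 to 89.1%), against 64.9% of all peaks, at a density of 1.07 per kb against 1.25 per kb. In the central 200 bp the core was present in 2 of 11 peaks (18.2%, interval 2.28 to 51.8%) against 25.8% of all peaks. Both were distal peaks, Itga5 peak 2 and Itga11 peak 1, or 2 of 4 distal integrin peaks (50.0%, interval 6.76 to 93.2%) against 35.2% of all distal peaks. Their cores lay toward the edge of the window, 77 and 85 bp from the centre, and in the central 100 bp the share of integrin peaks was 0%. None of the 7 proximal integrin peaks had TGGGAA at the centre (interval 0 to 41.0%), against 16.2% of all proximal peaks, so that a difference was not detectable with 7 peaks. These intervals cover counting error only.

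Motifs of other factor families were counted in the same windows on both strands, 10 sequences in all. TGGGAA is contained in GTGGGAA, and the AP-1 motif TGACTCA was counted together with its reverse complement TGAGTCA. This motif was found in 2 of the 11 integrin peaks, the Itga6 peak and Itga11 peak 2, and in 8.31% of all peaks. In Itga11 peak 2 it lay 9 bp from the centre, and in the Itga6 peak 75 bp from it. The Itga6 peak also held TGTGGTT, the RUNX motif, which occurred in 4.48% of all peaks. TGAGAA, a variant of the RBPJ core, was found in 2 of the 11 integrin peaks, those of Itga6 and Itgav, and in 14.4% of all peaks. Both integrin peaks with the AP-1 motif were distal, the class in which 14.2% of all peaks held it, against 2.26% of proximal peaks.

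In Itga11 peak 1 the TGGGAA core overlapped the TEAD motif GGAATG, so that both were read from the run TGGGAATG. GGAATG was found in no other integrin peak and in 11.9% of all peaks. GGGCGG, the motif of SP and KLF factors, was present in 4 integrin peaks, Itga5 peaks 1 and 2, Itga11 peak 1 and Itgav, and in 30.4% of all peaks. By class it was found in 2 of the 7 proximal and 2 of the 4 distal integrin peaks, against 52.0% of all proximal and 9.12% of all distal peaks. The Itgav peak held 4 copies within 49 bp of its centre. CCAAT, the motif of NF-Y, lay 14 bp from the centre of the Itga2 peak and 6 bp from that of Itga3, and 19.8% of all peaks had it. The ETS motif CCGGAAG, the E-box CACGTG and GTGGGAA were absent from all 11 central windows, against 5.48%, 4.10% and 9.28% of all peaks, respectively. A motif match describes the sequence of the window, and binding of these factors was not measured here.

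The promoters of Itga3, Itga5 and Itga8 are shown as examples of those that a peak covered in whole or in part. They are RefSeq sequences upstream of the gene (GRCm38.p6), of at most 250 bases and ending before the annotated transcript, with motif matches on either strand in capitals.
Itga3 promoter, chr11:95076802-95076964, minus strand: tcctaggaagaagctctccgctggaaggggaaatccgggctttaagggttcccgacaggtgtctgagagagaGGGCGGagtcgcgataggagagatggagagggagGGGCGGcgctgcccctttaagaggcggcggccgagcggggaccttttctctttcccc
Itga5 promoter, chr15:103366792-103367041, minus strand: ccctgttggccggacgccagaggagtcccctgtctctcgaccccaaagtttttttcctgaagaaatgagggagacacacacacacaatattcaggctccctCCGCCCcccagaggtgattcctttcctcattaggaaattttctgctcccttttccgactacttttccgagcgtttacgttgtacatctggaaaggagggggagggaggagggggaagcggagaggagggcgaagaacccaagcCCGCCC
Itga8 promoter, chr2:12301945-12302194, minus strand: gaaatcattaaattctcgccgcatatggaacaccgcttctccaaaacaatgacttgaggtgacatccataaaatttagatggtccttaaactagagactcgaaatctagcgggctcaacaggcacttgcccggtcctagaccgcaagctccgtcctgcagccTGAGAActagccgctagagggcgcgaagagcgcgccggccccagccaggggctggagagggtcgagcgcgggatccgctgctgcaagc

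Of the 10 genes, 8 had an upstream sequence of this kind, and none of the 8 held TGGGAA, against 21.6% of 32851 promoters of 250 bases. The sequences of Itga3 and Itga11 were shorter, at 163 and 221 bases, and so had less room for a match. The promoters of Itga3 and Itga5 each carried 2 copies of GGGCGG, that of Itga4 carried 1, and 32.7% of all promoters had the motif. The Itga8 promoter held TGAGAA, found in 17.2% of promoters, and 153 of its 250 bases were covered by the peak. The peaks at Itga1, Itga2, Itga3 and Itga5 covered the whole of these sequences, that of Itgav covered 125 bases, and those of Itga4 and Itga11 were not covered. As the cores of Itga2 and Itga5 show, the TGGGAA matches of the proximal peaks lay beyond this window.

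Of the remaining integrin alpha genes, 8 in number, 2 were assigned a peak and 0 had one within 1 kb of a TSS. Their regions were shorter, with a median length of 90.2 kb, and the 2 peaks compare with 2.18 from density, whereas the 10 genes above had 11 peaks against 21.1. Itga10, a collagen receptor of cartilage, had a peak of 341 bp near its 3' end, 18102 bp from its start and only 6445 bp from that of Ankrd35, and the peak counted for Itgae stood 31 bp from the start of Haspin, a kinase gene within the Itgae locus. The leukocyte genes Itgal, Itgam, Itgax and Itgad, all on chromosome 7, as well as Itga2b of platelets and Itga7 of muscle, had none. By ligand over all 18 integrin alpha genes, a peak was present at 4 of 4 collagen receptor genes, 2 of 3 laminin receptor genes, 3 of 4 RGD receptor genes, 1 of 5 leukocyte genes, and neither Itga4 nor Itga9, against 46.7% of all genes. Of the 5 leukocyte genes, 4 lay on chromosome 7, where peaks were sparse. Among the 8 remaining integrin alpha genes, 4 lay outside chromosomes 4, 7, X and Y, and 2 of these 4 had a peak, against 55.3% of all genes outside these chromosomes. Within 1 kb of a TSS the counts were 2 collagen, 1 laminin, 3 RGD and 0 leukocyte receptor genes, against 27.4% of all genes.

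Beta subunits are the partners of the alpha subunits, and 7 of 9 beta genes had a peak, 4 of them within 1 kb of a TSS. Itgb1, the shared partner of most of the 10 alpha subunits, had a peak centred 233 bp downstream of its 5' end, and Itgb3 and Itgb5, partners of Itgav, had peaks at 88 and 286 bp. Itgb4, the partner of Itga6 in hemidesmosomes, had one 591 bp from a TSS. Itgb6, which pairs with Itgav, had 10 peaks in 404 kb, where the density of peaks on the chromosome would give 2.30, but none within 1 kb of a TSS, the nearest being centred at 1453 bp. Of these 10 peaks, 4 lay nearer to the 5' end of Rbms1 or Pla2r1. Itgb2 and Itgb7 were each counted through a peak nearer to another gene, 10705 bp from Pttg1ip and 10026 bp from Rarg. Itgb8 and Itgb2l had no peak.

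Adaptors that link integrin tails to actin and signalling had a peak at 13 of 16 genes, with 10 within 1 kb of a TSS. These 10 included Ilk, Vcl, Pxn, Zyx and Ptk2, which encode integrin-linked kinase, vinculin, paxillin, zyxin and focal adhesion kinase, whereas Tln1, Fermt3 and Parva had none. Genes for ligands had a peak in 9 of 16 cases but centred within 1 kb of a TSS only at Fn1 and Lamc1, which encode fibronectin and a laminin chain. Counting by the centre leaves out peaks that spanned a 5' end from farther away, such as those of Bcar1 (2134 bp) and Col4a1 (1495 bp). Col4a1, a basement membrane collagen gene, had 8 peaks, where density would give 1.39, but 5 of the 8 lay nearer to the 5' end of Col4a2 or Rab20. Those nearest to Col4a2, at 62849, 53376 and 1474 bp, were almost as near to Col4a1, at 62870, 53397 and 1495 bp. They were centred in the gene body of Col4a1. Thbs1 had 6, near the 5.17 from density, and 2 of these lay nearer to Rasgrp1. The tenascin gene Tnc and Npnt, ligand genes of Itga9 and Itga8, had none. Of the adaptor and ligand genes without a peak, Tln1, Tnc and Svep1 lay on chromosome 4 and Parva on chromosome 7, where peaks were sparse. These lists are to be read against the 46.7% and 27.4% of all protein-coding genes, or 55.3% and 33.2% outside chromosomes 4, 7, X and Y. All 9 beta genes, 13 of the adaptor genes and 14 of the ligand genes lay outside these chromosomes. Their regions were also longer than the 93.8 kb of all genes, with medians of 125, 186 and 202 kb for beta, adaptor and ligand genes.

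**Figure D4:**
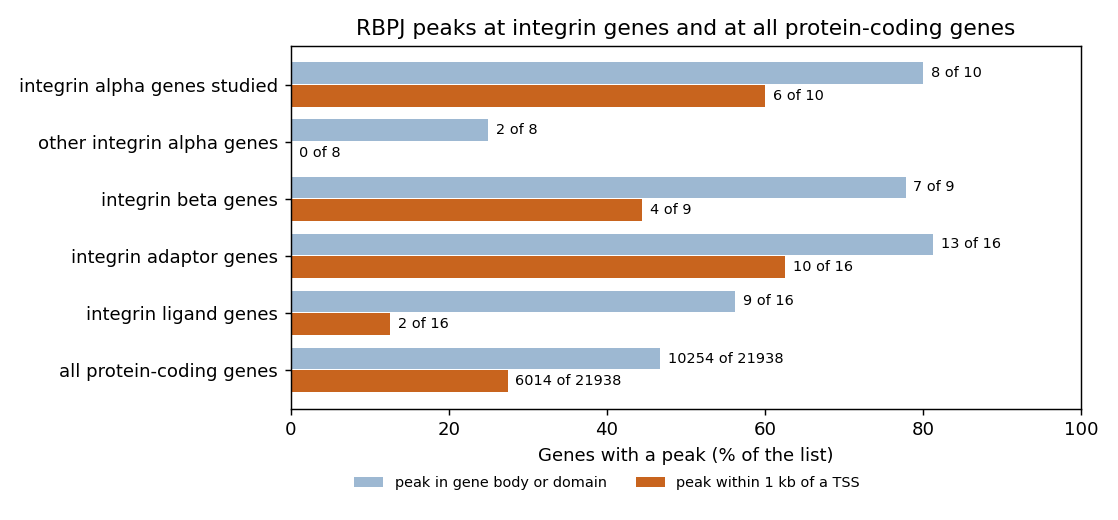
Share of genes with an RBPJ peak in 5 lists of integrin genes and in all protein-coding genes. The x axis gives the percentage of genes in each list, blue bars count a peak in the gene body or domain, orange bars a peak centred within 1 kb of a TSS, and the counts stand beside the bars. The 10 integrin alpha genes (8 and 6 of 10) and the adaptor genes (13 and 10 of 16) have the longest bars, and the ligand genes have 9 of 16 in the region but 2 of 16 near a TSS.

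The assignment of distal peaks to a gene rests on distance alone. In 6 of the 11 cases the integrin gene was the one with the nearest 5' end, and for the peaks at Itga6 and Itga11 a gene other than the integrin gene was nearer.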

How the data were processed

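RBPJ peaks were read from the list deposited for each of the 2 RBPJ replicates, which holds the start and the end of each peak in bp as made by the authors, without score, signal or summit. The 2 files were identical and were read as 1 list, so that the depth of sequencing and the precision of single peaks are unknown. According to the study's methods, reads were aligned to GRCm38 with Bowtie and duplicates removed with Picard and SAMtools. Peaks of MACS2 and PeakRanger within 2 kb were merged, and at least 3 calls had to overlap, which widens peaks and shifts their centres.

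Starts were counted from 1. Genes and TSSs (54327 starts of protein-coding transcripts) were taken from GENCODE M21, and sequences from GRCm38.p6. GC content, CpG ratio and motifs were computed in the central 200 bp, with exact (Clopper-Pearson) intervals at 95%. The number of peaks that density would give is the length of the region times the number of peaks per bp of its chromosome. No test was run. The members and the 4 lists of other integrin genes, adaptors and ligands were chosen with earlier results of these data known. The text names all 10 members with all their peaks, any gene of the lists, and neighbouring genes nearer to a peak than the member, and transcripts overlapping a peak were added after the values were seen. Alternatives covered the region of a gene, overlap in place of centre, peaks of at least 500 bp, the distance limit, the window and the motif. The assignment of peaks was tested on simulated data. Scripts ran in Python 3.11.15 with pysam 0.24.0 for sequences, pandas 2.3.3 and numpy 2.4.6 for tables, scipy 1.17.1 for intervals and matplotlib 3.10.9 for figures.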

Additional observations from a re-analysis of the deposited data

How the results depend on the processing

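The number of integrin alpha genes with a peak was 8 and ranged from 6 to 9 over the alternatives. It was 9 when any overlap of at least 1 bp counted, since the Ube2e3 peak then reached the region of Itga4. The number of peaks, 11, fell to 7 in gene bodies alone and to 6 in the basal part alone (5 kb upstream to 1 kb downstream of the 5' end). The other integrin alpha genes with a peak were 2 in the reported count, 1 without gene bodies, 1 with peaks of at least 500 bp and 0 in the basal part. The beta genes with a peak, 7, fell to 4 in the basal part, and the ligand genes, 9, to 5 in gene bodies and 3 in the basal part. These settings search shorter regions or fewer peaks by construction. Genes with a peak within 1 kb of a TSS remained at 6, except 5 at a limit of 500 bp, which leaves out Itga2. The share of all genes, 27.4%, was 23.6% at that limit, 31.7% at 5 kb and 21.2% with peaks of at least 500 bp. The share of integrin peaks with TGGGAA in the central 200 bp, 18.2%, was 0% in the central 100 bp, 63.6% in whole peaks, and 0% for GTGGGAA. With TGGGAA or TGAGAA counted, the share was 36.4%. The median width of the integrin peaks, 695 bp, was 916 bp with peaks of at least 500 bp and 1042 bp with those nearest to the integrin gene. Leaving out either RBPJ replicate gave the same values, 8 to 8 genes and 11 to 11 peaks, since the lists were identical. The use of protein-coding transcript starts and the omission of predicted genes as neighbours were added after seeing the data. They were run only for the counts of genes and peaks by region, and changed none of these. No paired analysis was possible because the replicates carried 1 identical list and no test was run. Without scores or depth, peaks near the calling threshold could not be examined.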
